A study of Homo sapiens with 12 samples.

Results

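The MCM genes encode the helicase that unwinds DNA at replication forks and the proteins most closely tied to it. The set described here is the 10 genes of the family chosen by symbol, namely MCM2, MCM3, MCM4, MCM5, MCM6, MCM7, MCM8, MCM9, MCM10 and MCMBP, out of 19293 genes in the deposited count table. All 10 were found, and all 10 passed the low-count filter that left 12160 genes for testing. RNA was sequenced from HT1080, an established human fibrosarcoma cell line, in 12 libraries that fall into 4 groups of 3. One group received interferon gamma (IFNγ, 10 ng/ml) together with 20 Gy of irradiation, one received 20 Gy alone, one received IFNγ at 10 ng/ml alone, and one was left without treatment. All groups were harvested after 24 h. The labels number the libraries of a group without saying whether each was a culture of its own. The p-values below therefore reflect how far these libraries vary, and that variation may be technical.

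MCM2 to MCM7 form a ring that is loaded onto replication origins in the G1 phase of the cell cycle by the origin recognition complex, CDC6 and CDT1. The ring stays inactive until the kinase CDC7 with DBF4, and other factors, help CDC45 and the GINS complex to join it, and the resulting CMG helicase (CDC45, MCM2 to MCM7 and GINS) then leads the fork through S phase. MCM10 acts in switching that helicase on. MCM8 and MCM9 pair in a separate helicase that acts in homologous recombination, and MCMBP binds MCM subunits outside the ring and acts in their assembly and stability. Many of these genes are known targets of the E2F transcription factors, which drive gene expression at entry into S phase.

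Total counts per library ran from 9675126 to 11010656. CDKN1A, the p53 target that encodes the cyclin-dependent kinase inhibitor p21, was higher in irradiated than in untreated cells by 2.45 on the log2 scale, and IRF1, an interferon target, was higher in IFNγ-treated than in untreated cells by 4.81. The 5 mesenchymal markers (VIM, FN1, CD44, SPARC and CDH2) summed to between 8880 and 10158 CPM in every library (CPM, counts per 1e6 counts of a library total after TMM scaling, the trimmed-mean scaling of edgeR), and the 6 immune and endothelial markers summed to at most 3.51. Of 4 epithelial markers, EPCAM and CDH1 had at most 3 counts over any group of 3 libraries, while the keratin KRT8 averaged 246 and KRT18 147 CPM in untreated cells.

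Promoter windows of 8 of the 10 genes were taken from the RefSeq table of human promoters (build GRCh38.p14). Each window ran from 250 bases before to 50 bases after an annotated start. No window of MCM4 or MCM5 was included in the search, so nothing is said here about words in their promoters. Words of the E2F binding site (TTTCCCGC, TTTCGCGC, TTTGCCGC or TTTGGCGC, on either strand) were searched in the 11 windows of these 8 genes, since MCM7 has 3 annotated starts and MCMBP has 2. The windows below are those of the gene that fell most under radiation (MCM6), of MCM2, of one of the 3 starts of MCM7, of the gene that fell least (MCM8) and of one that fell without holding any of the words (MCM10). Each is read 5′ to 3′ along the gene's own strand, with E2F words in capitals, and neighbouring or overlapping words merge into one capital stretch.
MCM6, chr2:135876394-135876693, minus strand: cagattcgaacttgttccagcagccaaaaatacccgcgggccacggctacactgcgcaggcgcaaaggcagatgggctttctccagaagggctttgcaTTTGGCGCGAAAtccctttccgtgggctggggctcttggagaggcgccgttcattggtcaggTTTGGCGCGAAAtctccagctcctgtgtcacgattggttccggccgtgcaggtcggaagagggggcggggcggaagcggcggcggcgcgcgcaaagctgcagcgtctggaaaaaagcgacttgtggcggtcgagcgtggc
MCM2, chr3:127598161-127598460, plus strand: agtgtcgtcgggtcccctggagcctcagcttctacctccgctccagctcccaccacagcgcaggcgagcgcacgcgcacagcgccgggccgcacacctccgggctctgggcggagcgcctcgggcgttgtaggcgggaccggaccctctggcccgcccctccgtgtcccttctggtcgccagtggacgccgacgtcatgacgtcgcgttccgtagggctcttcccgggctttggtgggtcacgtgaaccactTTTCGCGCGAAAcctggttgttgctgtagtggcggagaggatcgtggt
MCM7, chr7:100101348-100101647, minus strand: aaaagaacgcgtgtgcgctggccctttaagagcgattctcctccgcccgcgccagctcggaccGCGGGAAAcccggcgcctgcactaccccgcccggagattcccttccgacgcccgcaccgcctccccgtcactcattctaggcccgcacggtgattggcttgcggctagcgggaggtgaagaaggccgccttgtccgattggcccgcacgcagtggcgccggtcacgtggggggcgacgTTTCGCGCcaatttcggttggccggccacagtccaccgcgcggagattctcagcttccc
MCM8, chr20:5950402-5950701, plus strand: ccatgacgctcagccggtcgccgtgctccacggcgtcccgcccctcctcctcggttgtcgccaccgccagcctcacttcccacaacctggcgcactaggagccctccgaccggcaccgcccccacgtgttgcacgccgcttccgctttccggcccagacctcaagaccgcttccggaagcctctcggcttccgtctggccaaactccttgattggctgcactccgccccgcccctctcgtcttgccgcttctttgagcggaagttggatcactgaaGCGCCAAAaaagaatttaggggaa
MCM10, chr10:13161308-13161607, plus strand: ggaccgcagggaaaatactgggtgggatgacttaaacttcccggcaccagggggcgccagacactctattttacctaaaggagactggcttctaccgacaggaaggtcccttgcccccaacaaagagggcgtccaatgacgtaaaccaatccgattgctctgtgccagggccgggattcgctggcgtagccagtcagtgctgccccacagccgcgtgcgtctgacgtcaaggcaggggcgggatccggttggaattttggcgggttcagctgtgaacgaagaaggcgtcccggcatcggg

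In the MCM6 window the same stretch of overlapping words on both strands, TTTGGCGCGAAA, occurred at 2 places, from base -152 to -141 and from -90 to -79 relative to the start. MCM2 had TTTCGCGCGAAA from base 3 to 14 after the start. MCM7 had one word from -187 to -180 and another from -9 to -2 of the start shown, and none in the windows of its other starts. MCM8 had a single word, from base 27 to 34. MCM3 had one word from -174 to -167 and another from -4 to 4, and one of the starts of MCMBP had a single word. This makes 6 genes and 6 windows with a word, while MCM9 and MCM10 held none. Among 35116 promoter windows of the same length in the table, 3.31% held at least one of these words, and among the 20693 windows with a G and C content of 55% or more the share was 4.78%. The CHR word TTTGAA, known from genes expressed in G2 and mitosis, was in 0 of the 11 windows on either strand, in 15.2% of all windows and in 6.37% of those with a G and C content of 55% or more. The word CCAAT was in 8 of the 11 windows, belonging to 6 genes, in 34.6% of all windows and in 30.5% of those with that G and C content. These are matches of letters, and binding was not measured.

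Radiation without IFNγ. All 10 MCM genes were lower in irradiated cells than in untreated cells, and in none of them did the 3 irradiated libraries overlap the 3 untreated ones. The share of all genes tested whose groups did not overlap was not counted, so the lack of overlap cannot be set against it. The log2 fold changes ran from -2.72 for MCM6 to -0.54 for MCM8, with a median of -1.17 over the 10 genes and -1.57 over MCM2 to MCM7. The median over all 12160 genes tested was 0.01. Differences were tested with edgeR's quasi-likelihood method, p-values were adjusted by Benjamini-Hochberg across the 12160 genes, and an adjusted p under 0.05 counted as a call. By that rule 28.2% of all genes tested were called lower and 27.9% higher in this comparison. The largest adjusted p among the 10 genes was 2.85e-07, for MCM9. As these are bulk libraries, fewer cells in S phase and less of these RNAs in each cell cannot be told apart.

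MCM6, a subunit of the ring, changed most. It had 24.2, 22.4 and 22.8 CPM in irradiated libraries, against 154, 152 and 151 CPM in untreated libraries. Every irradiated library was thus far below every untreated one, and the spread within each group was small beside the gap. The log2 fold change was -2.72 ± 0.053 (SE), which leaves 15.2% of the untreated level, and only 3 of the 12160 genes tested had a lower value.

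MCM5, which lies beside MCM2 at the gate through which the ring opens, had 43.4, 46.9 and 44.3 CPM in irradiated libraries, against 154, 139 and 152 CPM in untreated libraries. Its log2 fold change of -1.72 ± 0.0548 leaves 30.3% of the untreated level. MCM2, a subunit that also binds histones, had 76.6, 68.7 and 76.2 CPM after irradiation, against 229, 211 and 211 CPM without treatment. The change was -1.56 ± 0.044, and the lowest untreated library was well above the highest irradiated one. MCM3, which sits next to MCM5 in the ring, had 57.0, 59.9 and 65.4 CPM in irradiated cells, against 189, 176 and 179 CPM in untreated cells, a log2 fold change of -1.58 ± 0.0473. These 3 subunits were close to one another, each left with between 30.3% and 34.0% of its untreated level.

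MCM7 and MCM4, which with MCM6 form a subassembly with helicase activity in vitro, fell less than the other ring subunits. MCM7 had 127, 130 and 127 CPM in irradiated libraries, against 322, 313 and 303 CPM in untreated libraries, and its log2 fold change was -1.29 ± 0.0357. For MCM4, a main substrate of the CDC7 kinase, the levels were 188, 180 and 191 CPM in irradiated libraries, against 341, 345 and 332 CPM in untreated libraries. Its log2 fold change of -0.87 ± 0.0345 leaves 54.8% of the untreated level, the highest remaining share among the 6 ring subunits. The groups did not overlap in either gene.

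**Figure D1:**
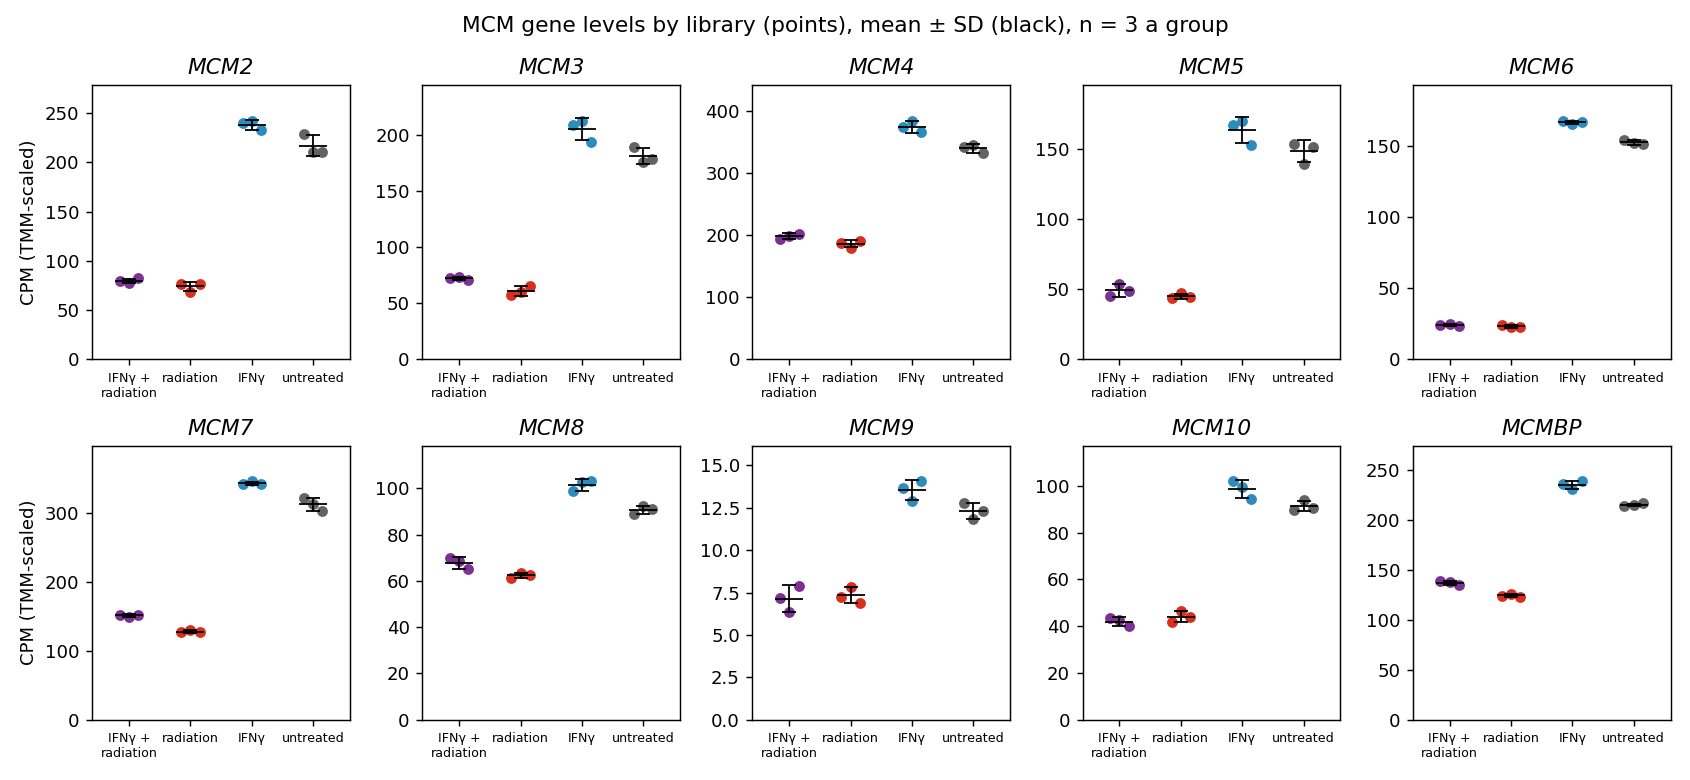
Levels of the 10 MCM genes in CPM on TMM-scaled library totals (y axis, linear, from 0) in cells given IFNγ and radiation, radiation, IFNγ or no treatment (x axis). Points are libraries and black bars are mean ± SD of 3. In every panel the irradiated libraries of both kinds lie below all unirradiated ones, with MCM6 at 23.1 ± 0.936 CPM in irradiated cells and 153 ± 1.5 CPM in untreated cells.

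MCM10, the activation factor, had 41.7, 46.4 and 44.1 CPM in irradiated cells, against 89.9, 94.0 and 90.5 CPM in untreated cells, so all irradiated libraries were at about the same level and below all untreated ones. The log2 fold change was -1.05 ± 0.0534, or 48.2% of the untreated level. MCMBP, the binding protein of the subunits, had 124, 126 and 123 CPM after irradiation, against 214, 214 and 216 CPM without treatment, and its log2 fold change was -0.79 ± 0.0369. Its groups were also clear of each other.

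The recombination pair was also lower. MCM8 had 61.2, 63.4 and 62.7 CPM in irradiated libraries, against 88.9, 92.1 and 91.0 CPM in untreated libraries, a log2 fold change of -0.54 ± 0.0484 that leaves 68.8% of the untreated level. MCM9 was read at much lower depth, with 72, 78 and 71 counts in irradiated libraries and 136, 126 and 121 counts in untreated libraries. On the CPM scale this was 7.26, 7.83 and 6.90 in irradiated cells, against 12.8, 11.9 and 12.3 in untreated cells. Its groups did not overlap, and the log2 fold change of -0.75 carried the widest standard error of the 10 genes, 0.118.

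Radiation with IFNγ. The same comparison made among cells that all received IFNγ sets other libraries against each other than those above. All 12 libraries were in the same fit, so the estimate of the spread was shared. Again all 10 genes were lower, here in cells given IFNγ and radiation than in cells given IFNγ alone, while 30.4% of all genes tested were called lower and 30.3% higher. The groups of the 10 genes did not overlap, and here too the share of all genes without overlap was not counted. The median log2 fold change was -1.21 over the 10 genes, -1.55 over MCM2 to MCM7 and 0.00 over all genes tested. MCM6 had 23.8, 24.6 and 23.0 CPM in combination libraries, against 168, 165 and 167 CPM in IFNγ libraries. Its log2 fold change of -2.81 ± 0.0516 was the third lowest of the 12160 genes tested. The order of the genes at the bottom was similar, with MCM5 at -1.74, MCM2 at -1.58 and MCM3 at -1.51.

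Among the rest, MCM10 fell by 1.23 on the log2 scale, with 43.4, 42.5 and 40.0 CPM in combination cells and 102, 99.3 and 94.3 CPM in cells given IFNγ alone. MCM7 fell by 1.18, with 152, 149 and 153 CPM in combination cells and 341, 346 and 342 CPM in cells given IFNγ alone. No group of either gene came near the other. MCM4 and MCM9 each fell by 0.92, MCMBP by 0.78 and MCM8, the least changed, by 0.58. Against untreated cells, with which the combination shares the treated libraries used here and the control libraries used above, all 10 genes were lower in combination cells, from -2.68 for MCM6 to -0.42 for MCM8, where 31.2% of all genes tested were called lower.

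**Figure D2:**
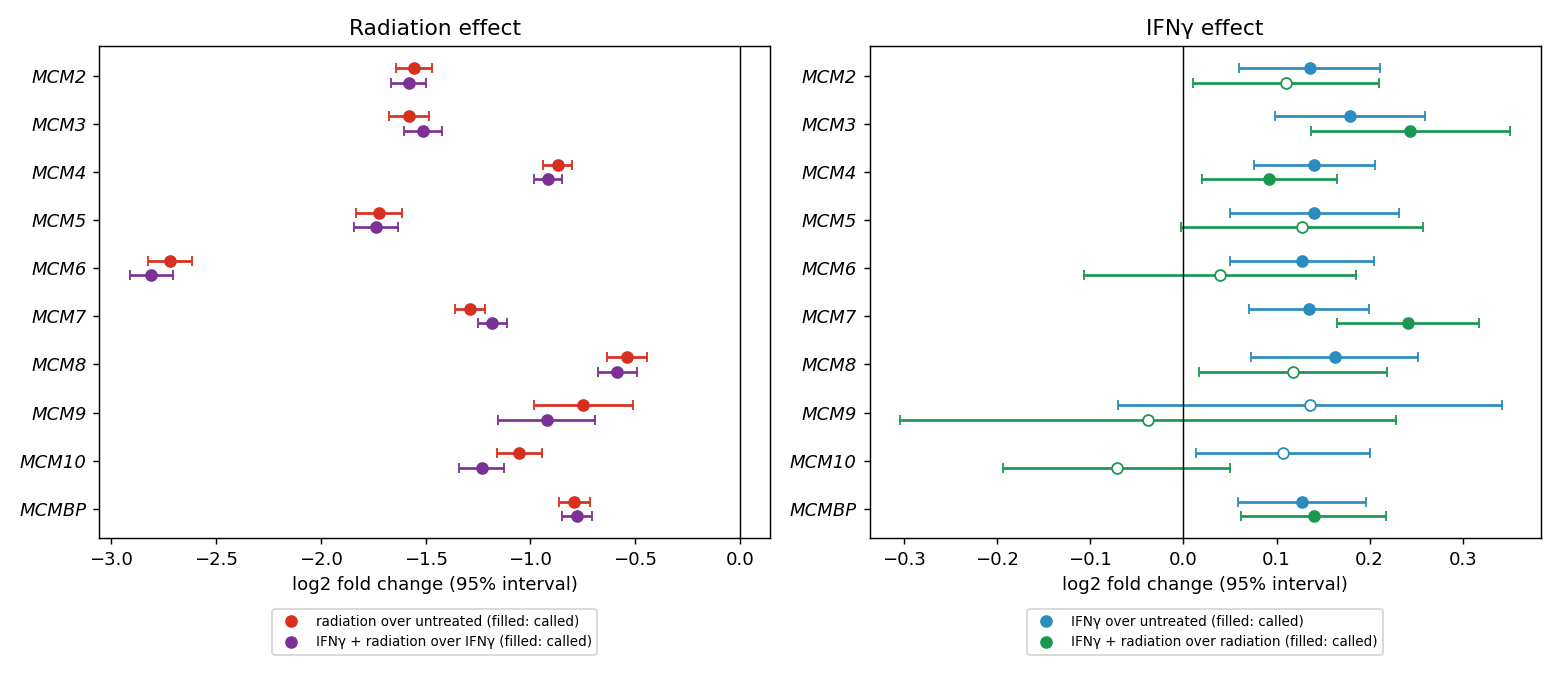
Log2 fold changes of the 10 MCM genes with 95% intervals (x axes) for radiation (left panel) and IFNγ (right panel), each in the absence and presence of the other treatment, with filled points for genes called at an adjusted p under 0.05. The radiation changes all lie left of 0, from -2.81 to -0.54, whereas the IFNγ changes lie between -0.07 and 0.24, on an axis of a finer scale.

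Subunit proportions. The 6 ring subunits did not fall in proportion. Summed over MCM2 to MCM7, the level was 574 ± 7.05 CPM in combination cells, 517 ± 9.41 CPM in irradiated cells, 1491 ± 34.1 CPM in IFNγ-treated cells and 1351 ± 33.7 CPM in untreated cells (SD, n = 3 each). MCM4 made up 35.3% of this sum on average in the 6 irradiated libraries and 25.1% in the 6 unirradiated ones, a gain of 10.1 percentage points. MCM6 made up 4.31% in irradiated libraries and 11.2% in unirradiated ones, a loss of 6.92 points. Every irradiated library, with or without IFNγ, had an MCM6 share of 3.96% to 4.69%, against 10.9% to 11.5% in unirradiated libraries.

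The other shares moved less. MCM7 averaged 25.6% with radiation and 23.1% without it, MCM5 8.61% with and 11.0% without, MCM2 14.1% with and 16.0% without, and MCM3 12.1% with and 13.6% without. In a two-sided exact permutation test that exchanged radiation labels within cells of the same IFNγ treatment, all 6 shares gave p = 0.005, the smallest that the 400 arrangements can give, and 0.005 after Benjamini-Hochberg adjustment over the 6. Shares sum to 100, so the 6 tests are not independent. The shares do not depend on how libraries are scaled against each other.

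The same test for IFNγ, exchanging IFNγ labels within irradiated and within unirradiated cells, passed for 0 of the 6 subunits after adjustment. At an unadjusted p under 0.05 there was 1 subunit, MCM3, whose share was 13.2% with IFNγ and 12.6% without it (exact permutation p = 0.04, adjusted p = 0.165). The adjusted p of the others ran from 0.165 to 0.755. This test averages over irradiated and unirradiated cells, and neither was tested alone. In irradiated cells the mean share of MCM4 was 34.5% with IFNγ and 36.0% without it. There MCM6 had 4.14% with and 4.48% without, and MCM7 26.4% with and 24.8% without. The libraries of these subunits did not overlap there, while those of MCM2, MCM3 and MCM5 did. In unirradiated cells the libraries of every subunit overlapped.

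**Figure D3:**
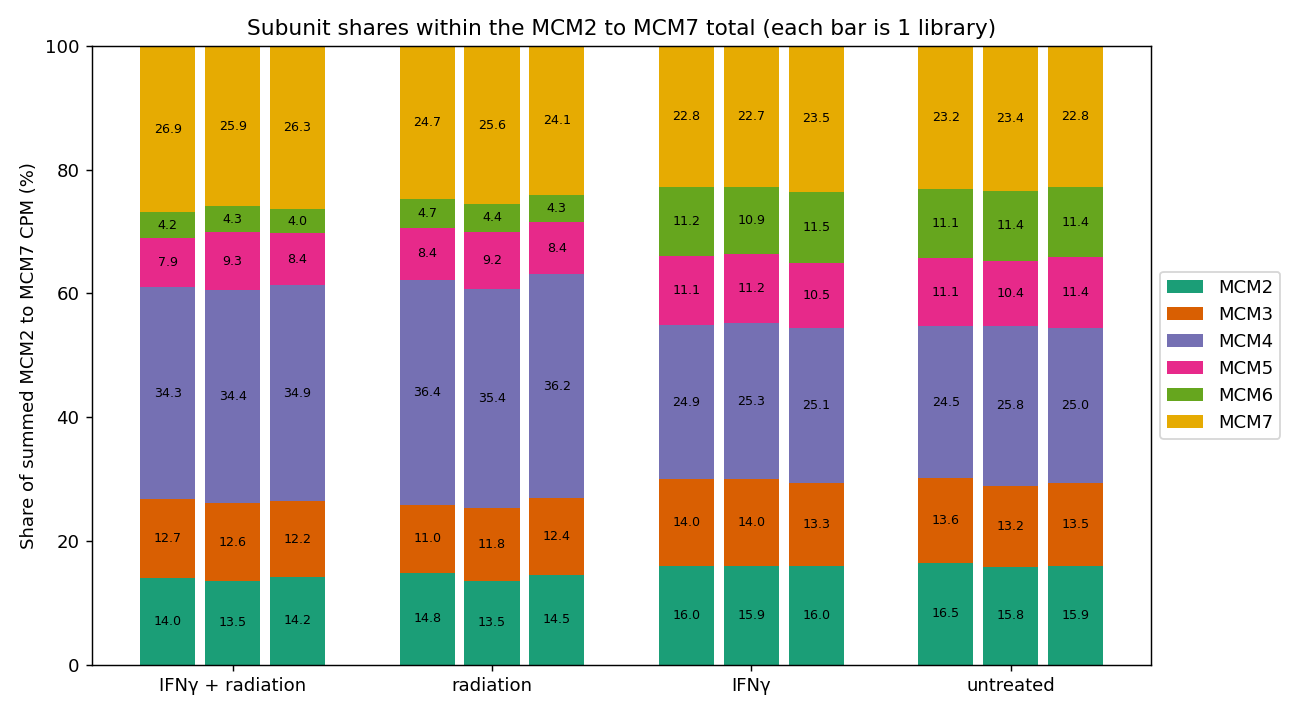
Share of each ring subunit in the summed CPM of MCM2 to MCM7 (y axis, percent), with 1 stacked bar per library in cells given IFNγ and radiation, radiation, IFNγ or no treatment. In the irradiated bars the MCM4 band is wider and the MCM6 band narrower than in every unirradiated bar, with means of 35.3% and 25.1% for MCM4 and of 4.31% and 11.2% for MCM6.

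Levels were set against each other between genes only after division by length, here the longest coding length of each gene in GENCODE release 29. That release is on a later genome build than the one the submitters name for the counts. For MCM4, alone among the members, its gene version differed from that in the counts. In untreated cells the order in CPM per kb of coding length was MCM7 (145 ± 4.53), MCM4 (125 ± 2.55), MCMBP (112 ± 0.644), MCM2 (80.0 ± 3.98), MCM3 (70.9 ± 2.71), MCM5 (67.3 ± 3.50), MCM6 (61.9 ± 0.608), MCM10 (34.8 ± 0.849), MCM8 (34.3 ± 0.616) and MCM9 (3.59 ± 0.131; SD, n = 3). The libraries of MCM3 overlapped those of MCM5, and those of MCM10 overlapped those of MCM8, while the other neighbours in this order did not overlap. In IFNγ-treated cells MCM7 was at 159 ± 1.08 and MCM6 at 67.7 ± 0.519 CPM per kb, close to the untreated picture.

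Irradiated cells had another order per kb of coding length. MCM4 led at 68.6 ± 2.06 CPM per kb, followed by MCMBP at 64.5 ± 0.839, MCM7 at 59.4 ± 0.723, MCM2 at 27.2 ± 1.64, MCM3 at 23.7 ± 1.68 and MCM8 at 23.6 ± 0.423. MCM5 came next at 20.4 ± 0.815, then MCM10 at 16.8 ± 0.888, MCM6 at 9.40 ± 0.380 and MCM9 at 2.14 ± 0.137 (SD, n = 3). The libraries of MCM3 overlapped those of MCM2 and of MCM8. MCM6 thus stood just above MCM9, below MCM8 and MCM10, whereas in untreated cells it stood above both. Among the ring subunits the ratio of MCM7 to MCM6 per coding kb was 7.27 ± 0.322 in combination cells, 6.33 ± 0.304 in irradiated cells, 2.35 ± 0.0337 in IFNγ-treated cells and 2.34 ± 0.0507 in untreated cells. The ratio of MCM4 to MCM6 was 7.58 ± 0.365 in combination cells, 7.30 ± 0.265 in irradiated cells, 2.04 ± 0.0626 in IFNγ-treated cells and 2.02 ± 0.0346 in untreated cells. Both ratios were higher in every irradiated library than in any unirradiated one. The order depends on which length is used. Per kb of all annotated exons MCM7 led in both groups, so the change of leader was lost, with MCM7 at 29.2 and MCM4 at 26.7 CPM per kb in irradiated cells and MCM7 at 71.2 and MCM4 at 48.7 CPM per kb in untreated cells. On that scale MCM6 was still below MCM8 and MCM10 in irradiated cells and above both in untreated cells, at 5.62 CPM per kb in irradiated cells and 37.0 CPM per kb in untreated cells.

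IFNγ without radiation. IFNγ alone was accompanied by small increases. Of the 10 genes, 8 were higher in IFNγ-treated than in untreated cells, 0 were lower and 2 did not pass the test, beside 15.0% of all genes tested called higher and 14.1% called lower. The called changes ran from 0.13 to 0.18 on the log2 scale. With raw library totals in place of TMM scaling all 10 values stayed above 0, and 2 genes were called, MCM3 (0.12) and MCM4 (0.08). Over all genes, 51.6% of the calls in this comparison were higher with TMM and 31.1% with library totals. The median over all genes tested was -0.01 with TMM and -0.06 with library totals. The share of all genes called higher with library totals is not given here, so the 2 calls cannot be set against it. The 4 epithelial markers, here almost wholly KRT8 and KRT18, also moved with IFNγ and summed to 516 to 529 CPM in IFNγ libraries, against 382 to 407 CPM in untreated libraries, while EPCAM and CDH1 stayed near 0 in both. Of the 5 mesenchymal markers, 1 was called higher and 4 lower. They summed to 8880 to 8962 CPM in IFNγ libraries, against 9534 to 9744 CPM in untreated libraries.

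MCM3 had 209, 213 and 194 CPM in IFNγ libraries, against 189, 176 and 179 CPM in untreated libraries, and changed most, by 0.18 ± 0.0400 (adjusted p = 0.000327). MCM8 had 98.6, 103 and 103 CPM with IFNγ, against 88.9, 92.1 and 91.0 CPM without treatment, a change of 0.16 ± 0.0448. In both genes the groups stood apart, by a narrow margin for MCM3. MCM6 had 168, 165 and 167 CPM in IFNγ libraries, against 154, 152 and 151 CPM in untreated libraries, a change of 0.13 ± 0.0385. MCM5 was called at 0.14 ± 0.0451 although its groups overlapped, with 167, 170 and 153 CPM with IFNγ and 154, 139 and 152 CPM in untreated cells. That call ended with DESeq2 (0.14, adjusted p = 0.0683) and without untreated replicate 2 (0.10), IFNγ replicate 1 (0.12) or IFNγ replicate 2 (0.11), and the call of MCM6 ended without IFNγ replicate 1 (0.11). MCM2, MCM4, MCM7 and MCMBP were called with changes between 0.13 and 0.14.

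MCM10 and MCM9 were the 2 that did not pass. MCM10 was at 0.11 with a 95% interval of 0.01 to 0.20 (adjusted p = 0.079), and it passed without IFNγ replicate 3 (0.14, adjusted p = 0.0414). MCM9 was at 0.14 with an interval of -0.07 to 0.34 (adjusted p = 0.357). Both central values lay near those of the called genes, and the interval of MCM9 was wide.

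IFNγ with radiation. In irradiated cells IFNγ was accompanied by an increase of 4 of the 10 genes, with 0 lower and 6 that did not pass, beside 14.5% of all genes tested called higher and 12.4% called lower. Over all genes 53.9% of these calls were higher with TMM scaling and 38.0% with library totals. MCM7 had 152, 149 and 153 CPM in combination libraries, against 127, 130 and 127 CPM in irradiated libraries, without overlap, and rose by 0.24 ± 0.0382 (adjusted p = 8.29e-07). MCM3 had 72.1, 72.9 and 70.9 CPM in combination libraries, against 57.0, 59.9 and 65.4 CPM in irradiated libraries, and also rose by 0.24. All combination libraries were above all irradiated ones in both genes. MCMBP rose by 0.14 ± 0.0387, with 138, 138 and 134 CPM in combination cells and 124, 126 and 123 CPM in irradiated cells. In the same comparison 10 of 13 genes of G2 and mitosis were higher and 0 lower, with a summed level of 4183 to 4287 CPM in combination libraries and 3774 to 3843 CPM in irradiated libraries, and the epithelial markers summed to 567 to 585 CPM in combination libraries and 395 to 414 CPM in irradiated libraries. Of the 5 mesenchymal markers, 1 was called higher and 4 lower. They summed to 9510 to 9531 CPM in combination libraries and 9767 to 10158 CPM in irradiated libraries. The part of any of these lists in the MCM changes was not tested.

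The call of MCM4 was marginal, at 0.09 ± 0.0360 (adjusted p = 0.0491), with 194, 199 and 202 CPM in combination libraries and 188, 180 and 191 CPM in irradiated libraries. It was lost with DESeq2 (0.09, adjusted p = 0.103), with library totals (0.05, adjusted p = 0.306) and without irradiated replicate 1 (0.10) or 2 (0.07) or combination replicate 2 (0.09) or 3 (0.08). MCM5 (0.13), MCM8 (0.12) and MCM2 (0.11) did not pass, although MCM5 passed without combination replicate 1 (0.19) and MCM8 without combination replicate 3 (0.15). MCM6 was at 0.04 with a 95% interval of -0.11 to 0.19, and at 0.00 with library totals. MCM9 was at -0.04 (-0.30 to 0.23) and MCM10 at -0.07 (-0.19 to 0.05), with overlapping groups in all 3.

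Interaction. Whether the effect of IFNγ differed between irradiated and unirradiated cells was tested by the interaction term, the first of these log2 changes minus the second. It was called for 0 of the 10 genes, beside 2.38% of all genes tested called in either direction (58.1% of those calls positive with TMM and 69.4% with library totals). DESeq2 also called 0 of the 10. Without adjustment edgeR gave a p under 0.05 for 2 of the genes. MCM10 was at -0.18 (edgeR adjusted p = 0.243) and MCM7 at 0.11 (edgeR adjusted p = 0.299). The widest 95% interval was that of MCM9, from -0.51 to 0.16, and the interval of MCM6 ran from -0.25 to 0.08. A difference in response between irradiated and unirradiated cells was therefore not detected for any MCM gene with 3 libraries a group, within these intervals.

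Helicase loading and activation genes. Most listed genes that act around the ring were also lower. Of 9 origin recognition and loading genes, 6 were lower and 0 higher in irradiated than in untreated cells (median -0.23). Of all genes tested, 28.2% were called lower and 27.9% higher in this comparison. ORC1, the subunit of the origin recognition complex that varies with the cell cycle, fell by 1.22 to 16.5 ± 0.774 CPM in irradiated cells, against 38.4 ± 0.946 CPM in untreated cells. The loading factor CDC6 fell by 0.95, with 43.6 ± 2.32 CPM in irradiated cells and 84.5 ± 5.57 CPM in untreated cells, and the partner loading factor CDT1 fell by 0.24. All 5 partners of the ring in the CMG helicase were lower (median -0.47), led by GINS2 at -1.58 and CDC45 at -1.29, with GINS4 the least changed at -0.16. GINS2 had 14.5 ± 1.57 CPM in irradiated cells and 43.5 ± 1.38 CPM in untreated cells.

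Of 8 helicase activation genes, 6 were lower and 1 higher (median -0.22), beside 28.2% of all genes tested called lower and 27.9% called higher. TOPBP1, a scaffold of helicase activation and checkpoint signalling, fell by 0.57 and the kinase CDC7 by 0.45, whereas DBF4B, an alternative activator of CDC7, rose by 0.33. Of 10 fork protection and priming genes, 9 were lower and 0 higher (median -0.68), led by TIPIN of the fork protection complex (-1.46) and POLA1, the catalytic subunit of DNA polymerase alpha (-1.33). Among 5 measured genes of the proteins that work with MCM8 and MCM9, 3 were lower and 0 higher. RPA2, of the single-strand binding complex, fell by 0.60, while C17orf53, which encodes the loader of MCM8 and MCM9 known as HROB, was at 0.00 and did not pass. MCM3AP and MCMDC2 also have MCM in their names but are not subunits of the ring: MCM3AP fell by 0.10 and MCMDC2 was at -0.06 and did not pass.

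**Figure D4:**
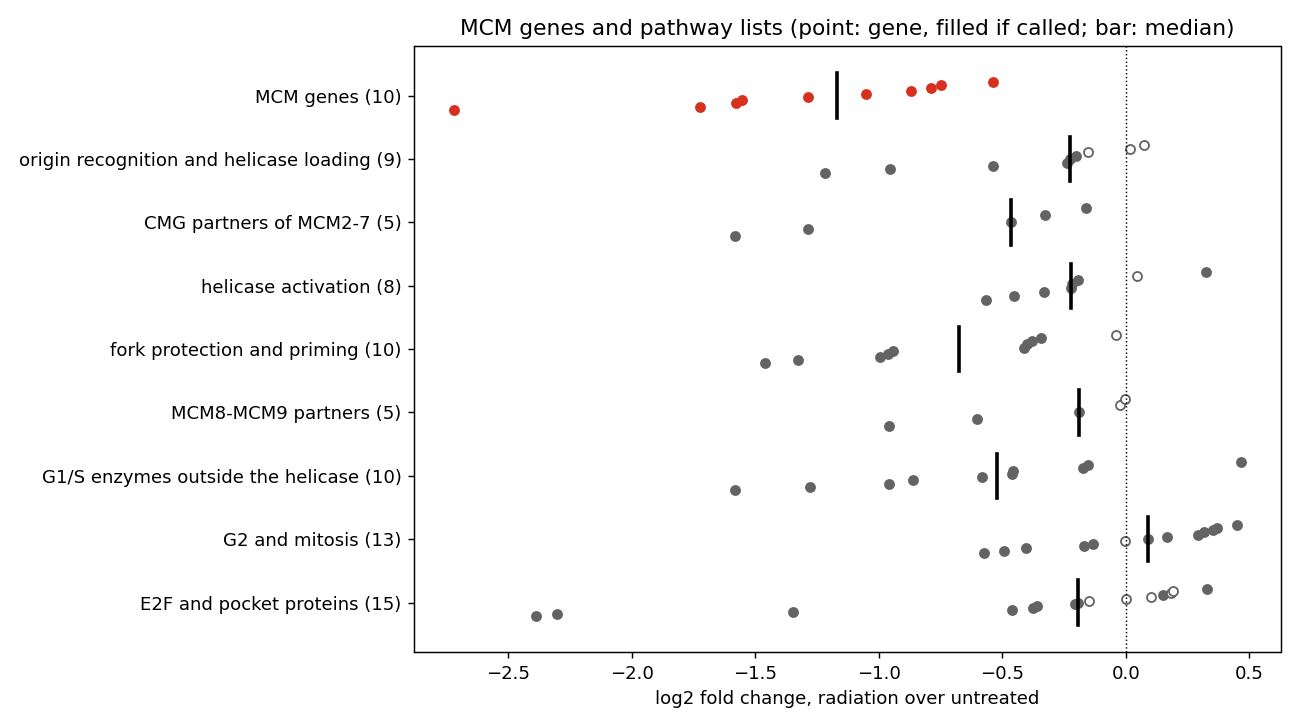
Log2 fold changes in irradiated over untreated cells (x axis) for the MCM genes and for 8 lists of related genes (rows, number of genes tested in brackets), with filled points for genes called at an adjusted p under 0.05 and a black bar at each list's median. The MCM median of -1.17 lies left of the medians of all 8 lists, which run from -0.68 to 0.09.

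Cell cycle genes. Of 10 genes of G1 and S phase outside the helicase, not all of them enzymes, 9 were lower and 1 higher in irradiated than in untreated cells (median -0.52). The shares over all genes tested were 28.2% called lower and 27.9% called higher. UNG, which removes uracil from DNA, fell by 1.58 and UHRF1, which takes part in copying DNA methylation, by 1.28. PCNA, the sliding clamp and also a known p53 target, was the one that rose, by 0.47, with 293 ± 6.62 CPM in irradiated cells and 212 ± 5.40 CPM in untreated cells. Unlike the MCM genes PCNA had a called interaction, at 0.34 (edgeR adjusted p = 1.33e-06), with 417 ± 2.77 CPM in combination cells and 238 ± 4.33 CPM in cells given IFNγ alone.

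Genes of G2 and mitosis moved in both directions. Of 13, 7 were higher and 5 lower (median 0.09), beside 27.9% of all genes tested called higher and 28.2% called lower. Their summed level was 3774 to 3843 CPM in irradiated libraries and 3808 to 3833 CPM in untreated libraries. HMMR, a spindle protein, rose by 0.45 and CDK1, the mitotic kinase, by 0.37. MKI67, the proliferation marker Ki-67, fell by 0.57 and CDC20, an activator of the anaphase-promoting complex, by 0.49. Cyclin B1 (CCNB1) was at 0.00 and did not pass. In IFNγ-treated cells, where the sum was 4183 to 4287 CPM with radiation and 3908 to 4003 CPM without it, 8 of the 13 were higher and 3 lower after irradiation, beside 30.3% of all genes tested called higher and 30.4% called lower. The part of cell cycle composition in the MCM changes was not tested.

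Of 15 genes of the E2F factors and the pocket protein complexes that restrain them, 8 were lower and 2 higher in irradiated than in untreated cells (median -0.19). Over all genes tested, 28.2% were called lower and 27.9% higher. E2F2 fell by 2.39 and E2F1 by 2.30, both activators of S phase genes. E2F1 had 8.98 ± 0.122 CPM in irradiated cells and 44.2 ± 3.51 CPM in untreated cells, without overlap. RB1, the retinoblastoma protein, rose by 0.33 and the repressor E2F7 by 0.15, and these were the 2 higher ones. The pocket protein gene RBL1 was at -0.38, and E2F8, E2F4 and E2F6 were at -1.35, -0.36 and -0.19, all called lower. Genes that restrain E2F targets thus did not move in one direction. In the presence of IFNγ, E2F1 was likewise lower after irradiation, by 2.14, and E2F2 by 2.08. IFNγ itself, by contrast, gave no call for E2F1, at 0.16 in irradiated and 0.00 in unirradiated cells.

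Neighbouring genes. Several MCM genes lie head to head with, or overlap, another gene, and the strand setting of the counting is not given in the sources used here, so reads of overlapping genes on opposite strands could have been assigned to either. PRKDC, the catalytic subunit of DNA-dependent protein kinase, starts beside MCM4 on the opposite strand and was at 0.00 ± 0.0285 in irradiated over untreated cells, with 958 ± 30.2 CPM in irradiated cells and 958 ± 25.1 CPM in untreated cells, while MCM4 fell by 0.87. SEC23IP, on the opposite strand beside MCMBP, was at 0.09 and did not pass, while MCMBP fell by 0.79. TRMT6, head to head with MCM8, fell by 0.43, near the 0.54 by which MCM8 fell.

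The histone chaperone gene ASF1A lies within the span of MCM9 on the opposite strand and fell by 0.36, with 30.0 ± 0.873 CPM in irradiated cells and 38.6 ± 1.01 CPM in untreated cells. The low counts of MCM9 therefore carry an uncertain assignment. AP4M1 overlaps MCM7 at its start on the opposite strand and was at 0.12 without passing. TAF6, near MCM7 on the same strand, fell by 0.22, and HMOX1, near MCM5 on the same strand, rose by 0.52 where MCM5 fell by 1.72.

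Genes with a similar pattern. Among 10479 other genes whose log2 CPM averaged 2 or more, likeness to the mean log2 profile of MCM2 to MCM7 was measured as Pearson's r over the 12 libraries, as a description. The libraries form 2 clusters, irradiated and unirradiated, so a high r over all 12 largely records the step between them. For that reason r was also taken within the 6 libraries of each cluster. Each cluster holds libraries with and without IFNγ, so r within a cluster can also record the step between those. The closest gene was MSH6, a mismatch repair protein, with r = 0.999 over all libraries, 0.773 within irradiated and 0.914 within unirradiated libraries. It fell by 1.08 in irradiated over untreated cells. Also among the nearest were HNRNPDL (0.998), the linker histone gene H1F0 (0.998), TRA2B (0.998), UBTF (0.998), HNRNPD (0.997) and POLA1 (0.997). Of the genes named here, H1F0 had the highest r within each cluster, 0.988 irradiated and 0.950 unirradiated, and its log2 fold change was -2.81.

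The other members were nearest to different genes. MCM8 was nearest to the nuclear export receptor gene XPO1 (0.998), HSP90AB1 (0.994) and USP1 (0.994). MCM9 was nearest to HIST3H2A (0.992), SFPQ (0.989) and PRMT3 (0.988), and MCM10 to UNG (0.998), HSPA9 (0.997) and CCT5 (0.997). For MCMBP the nearest were HNRNPU (0.999), H1F0 (0.998) and SMC3 (0.998). Within irradiated libraries r was 0.969 for XPO1 with MCM8, 0.949 for UNG with MCM10 and 0.969 for HNRNPU with MCMBP. Within unirradiated libraries it was 0.980 for XPO1, 0.631 for UNG and 0.968 for HNRNPU.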

How the data were processed

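Per the labels, total RNA of HT1080 cells was depleted of ribosomal RNA and made into stranded libraries read as paired ends on an Illumina HiSeq instrument, although the series' design text names an mRNA protocol. The submitters' processing notes name TopHat2 2.0.13, Cuffdiff 2.2.1, Cufflinks and FastQC 0.11.3, and the builds hg19 and GRCh37. The authors deposited raw whole-number counts per gene. How reads were counted, with what annotation and strand setting, is not given in the sources used here.

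Counts were fitted with edgeR 4.0.16 in R 4.3.3 (filterByExpr, TMM scaling, robust quasi-likelihood, Benjamini-Hochberg over 12160 genes), with all 12 libraries in one fit. The common biological coefficient of variation was 2.71%. SE was taken as the size of the log2 fold change over the root of F. The MCM genes and the lists were chosen with earlier results of these data known. Genes named from a list are the called ones with the largest changes, up to 2 in each direction, in irradiated against untreated cells, together with CDKN1A, PCNA, MKI67, CCNB1, CDK1 and neighbours of MCM genes. CDT1, GINS4, C17orf53, IRF1, E2F4, E2F6, E2F8, RBL1 and the marker genes were named in addition, after their values were seen. A few genes that the rule names are not reported here. Replicates differed by more than sampling noise (chi-square per degree of freedom 1.14 to 2.75). Library numbers did not pair samples across groups. Alternatives were DESeq2 1.42.0, library totals, no filter, a replicate block, only the compared groups, and each library left out.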

Additional observations from a re-analysis of the deposited data

How the results depend on the processing

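The radiation calls (10 lower with and without IFNγ, and 10 for the combination against untreated cells) kept their counts under all alternatives run, and the interaction stayed at 0 called. For IFNγ without radiation 8 genes were called, beside 15.0% of all genes tested called higher, and 2 once raw library totals replaced TMM scaling. The shares of all genes tested that were called under the alternatives of this section are not given here. Leaving out 1 library gave 6 to 9 called for IFNγ without radiation, 3 to 5 for IFNγ with radiation, 10 to 10 for each radiation comparison and for the combination, and 0 to 0 for the interaction. Subunit shares passed for 6 of 6 under radiation and 0 of 6 under IFNγ in every leave-one-out fit. Taking fold changes of single genes and shares of single subunits together, 845 values kept their side of the threshold, 18 lost a call, 3 gained one and 0 reversed. All 21 changes were in gene fold changes of the IFNγ comparisons.

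Same-numbered libraries did not deviate together: of 18 pairs 0 had a correlation over 0.1 (range -0.0711 to 0.0537). With the replicate number as a replicate block, 10 MCM genes were called lower under radiation, 8 higher for IFNγ without radiation and 3 for IFNγ with radiation, where MCM4 was lost (0.09, adjusted p = 0.0561). Depth limits MCM9 most, with 67 to 140 counts per library.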
